A study of Homo sapiens with 9 samples.

Results

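The genes described here are 10 parts of the NF-kB pathway: the subunits NFKB1, NFKB2, RELA and RELB, the inhibitors NFKBIA and NFKBIE, the kinase IKBKB, and the NF-kB-responsive genes TNFAIP3, BIRC3 and TNFAIP2. They were taken by gene symbol from a count table of 58676 genes, and the set was chosen with earlier results of these data known. All 10 passed the filter on low counts that left 16239 genes to test. The cells were HaCaT, an immortalised line of human keratinocytes, and RNA-seq was run on 9 libraries in 3 groups of 3. Cells were given 250 nM CDDO-Me, 10 µM PRL-295 or 1% DMSO for 14 h. CDDO-Me, or bardoxolone methyl, is a triterpenoid electrophile known for activating NRF2, the transcription factor of the antioxidant response, and PRL-295 is a second compound that the study compares with it. DMSO is named for the control group alone. The labels give no stimulus of NF-kB in any group, and nothing says that replicate libraries are separate cultures, so that p-values measure the spread between these samples, which may be technical.

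NF-kB factors are dimers of Rel-family proteins that are held in the cytoplasm by IkB inhibitors. A signal from a cytokine or microbial receptor activates the IkB kinase complex, which marks the inhibitor for degradation and frees the dimer to enter the nucleus. In keratinocytes the pathway is known for its part in inflammation and barrier defence, and among its own target genes are inhibitors such as NFKBIA and TNFAIP3 that end the response.

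The binding site of NF-kB, the kappa-B element, can be shown in the promoters of several of these genes. Promoter windows of 300 bases (250 before to 50 after an annotated start) from RefSeq, build GRCh38.p14, were at hand for 7 of the 10 genes, in 11 windows. RELB and NFKBIE were not matched, and that of IKBKB is not shown. The published kappa-B consensus, searched on both strands, was found in windows of 5 of the 7 genes, and in 11.3% of all 34941 promoters of that length. The units differ, as a gene counted if any of its windows held a match, while the 11.3% is a share of single windows. A match is a description of the letters and not evidence of binding. The match farthest upstream in the first window with one is printed for each gene with 10 bases on each side, on the gene's strand and with the match in capitals, to show the letters that the search met in 2 subunits, an inhibitor and 2 responsive genes. Their likeness follows from the search. The NFKB1 match lies at chr4:102501300-102501329 (+), that of NFKB2 at chr10:102394461-102394490 (+), that of NFKBIA at chr14:35404811-35404840 (-), that of TNFAIP3 at chr6:137867182-137867211 (+) and that of BIRC3 at chr11:102317275-102317304 (+), flanks included.
NFKB1: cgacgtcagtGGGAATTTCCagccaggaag
NFKB2: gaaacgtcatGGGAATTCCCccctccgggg
NFKBIA: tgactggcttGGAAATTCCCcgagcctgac
TNFAIP3: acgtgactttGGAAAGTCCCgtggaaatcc
BIRC3: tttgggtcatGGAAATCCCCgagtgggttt

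The NFKB2 match reads as the consensus on both strands, and those of NFKBIA, TNFAIP3 and BIRC3 read as it on the opposite strand. The windows of TNFAIP3 and BIRC3 held 2 matches each, and the 3 windows of NFKB2 held 0 (at the deposited gene start), 3 and 2, of which some overlap. No match was found in the windows of RELA or TNFAIP2, which says only that these letters are not there. The TNFAIP2 window is shown whole because TNFAIP2 was the member with the clearest change. It spans chr14:103123211-103123510 (+), and its capitals mark both matches to TGACNNNGC, the core of the antioxidant response element to which NRF2 binds. These letters were present in 13.3% of all promoters, and among the other windows only that of NFKBIA held them.
TNFAIP2: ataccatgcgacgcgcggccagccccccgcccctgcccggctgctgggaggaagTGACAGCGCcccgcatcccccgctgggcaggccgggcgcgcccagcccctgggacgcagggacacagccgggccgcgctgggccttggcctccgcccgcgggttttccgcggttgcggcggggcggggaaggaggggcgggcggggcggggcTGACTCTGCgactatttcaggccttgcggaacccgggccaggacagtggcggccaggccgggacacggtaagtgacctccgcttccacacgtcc

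TNFAIP2 fell with CDDO-Me, and no change of the other 9 genes passed the test in any comparison. TNFAIP2 was 5.19-fold lower with CDDO-Me than with DMSO, and 3.46-fold higher with PRL-295 than with CDDO-Me. The threshold was 0.05 on the adjusted p of edgeR's quasi-likelihood test, with Benjamini-Hochberg adjustment over 16239 genes in each of 3 comparisons. In CDDO-Me against DMSO, 0 members were called higher and 1 lower, where 9.22% of all genes tested were called, 4.65% higher and 4.57% lower. In PRL-295 against DMSO, 0 of 10 members were called, where 0.684% of all genes were called, 0.462% higher and 0.222% lower. In PRL-295 against CDDO-Me, 1 member was called higher and 0 lower, where 1.59% of all genes were called, 0.905% higher and 0.684% lower. The doses of the compounds differ, so this last comparison is between the conditions as given.

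Apart from TNFAIP2, the log2 fold changes of the 9 members ran from -0.42 to 0.42 with CDDO-Me, from -0.18 to 0.30 with PRL-295, and from -0.24 to 0.38 for PRL-295 against CDDO-Me. In each comparison 8 of the 10 intervals lay within 1 log2 unit of no change, the exceptions being TNFAIP2 and BIRC3. Over the 10 members the median was -0.19 with CDDO-Me, where that of all genes tested was 0.0078. It was 0.03 with PRL-295, where that of all genes was -0.012, and 0.16 for PRL-295 against CDDO-Me, where that of all genes was -0.0065. With a correction that takes out each library's trend with GC content and gene length, the members' medians were -0.036, 0.14 and 0.11 in the same order. That trend differed between the groups, so the correction may also take out an effect of a compound that follows GC content. Library trend and compound effect cannot be told apart here. At an unadjusted p under 0.05 there were 5 of 10 members for CDDO-Me, where 26.0% of all genes did the same, 2 for PRL-295, where 12.9% did, and 3 for PRL-295 against CDDO-Me, where 17.2% did. By DESeq2, TNFAIP3 was also called for CDDO-Me and NFKB1 for PRL-295 against CDDO-Me, while PRL-295 against DMSO again had 0. Both compounds were set against the same 3 DMSO libraries, so their fold changes share an error.

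**Figure D1:**
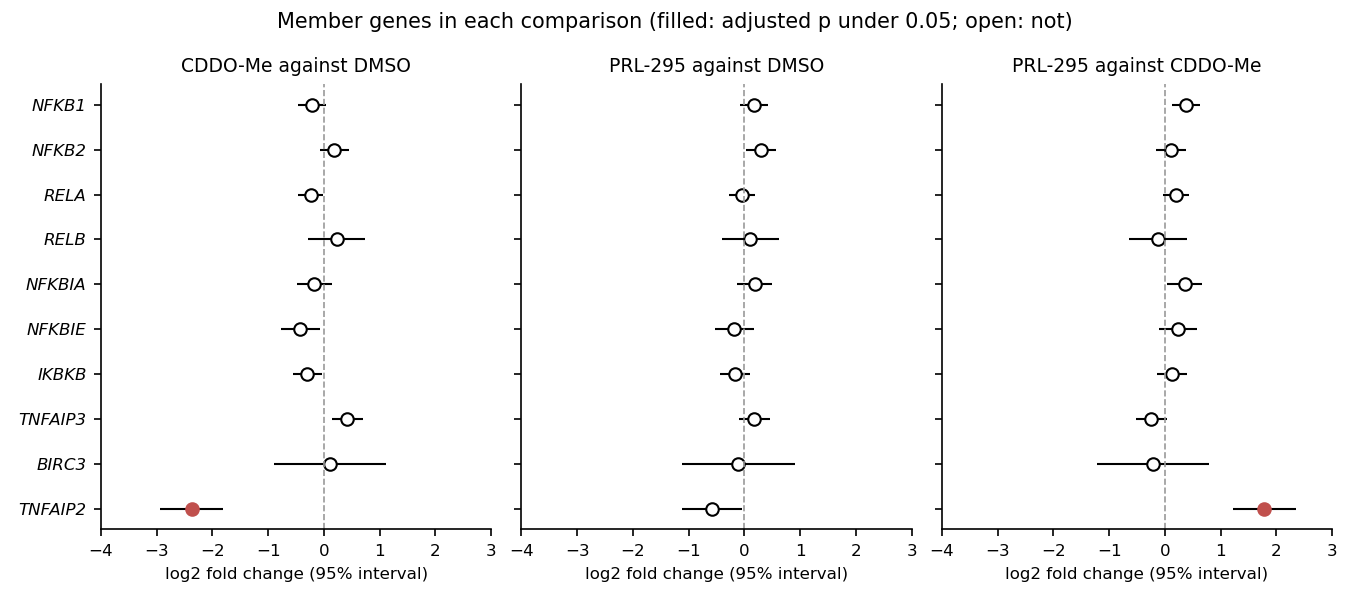
Log2 fold change (x axis) of the 10 members (y axis) in the 3 comparisons, with 95% intervals; filled points passed an adjusted p of 0.05 and open points did not. TNFAIP2 stands at -2.37 for CDDO-Me against DMSO and at 1.79 for PRL-295 against CDDO-Me, while the other 9 genes lie between -0.42 and 0.42.

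The genes are not expressed alike. On a length-scaled scale (FPKM, reads scaled to gene length and library total), NFKB2 was first with CDDO-Me at 47.7 ± 3.82 and with PRL-295 at 50.3 ± 3.06 (SD, n = 3), and stood at 41.8 ± 4.58 with DMSO, where NFKBIA at 42.4 ± 5.58 overlapped it. NFKBIA averaged 37.6 FPKM with CDDO-Me and 47.1 FPKM with PRL-295, and TNFAIP3 averaged 39.9 FPKM with CDDO-Me, 33.0 with PRL-295 and 29.7 with DMSO. Ranges of neighbours in this order overlapped between NFKB2, TNFAIP3 and NFKBIA with CDDO-Me, between NFKB2 and NFKBIA and between TNFAIP2 and NFKBIE with PRL-295, and between TNFAIP3 and RELA with DMSO. RELA, NFKB1 and RELB followed in every group, between 14.5 and 26.1 FPKM on average. RELB overlapped both RELA and NFKB1 with CDDO-Me, and it overlapped TNFAIP2 with DMSO. NFKBIE, at 7.05 FPKM with CDDO-Me, 8.16 with PRL-295 and 9.41 with DMSO, and IKBKB, between 5.09 and 6.23, were low. BIRC3 was last in every group at 1.46, 1.24 and 1.35 FPKM with CDDO-Me, PRL-295 and DMSO. TNFAIP2 took the ninth place with CDDO-Me at 2.72 ± 1.13 FPKM, and the seventh both with PRL-295 at 9.21 ± 1.20 FPKM and with DMSO at 14.1 ± 1.32 FPKM.

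**Figure D2:**
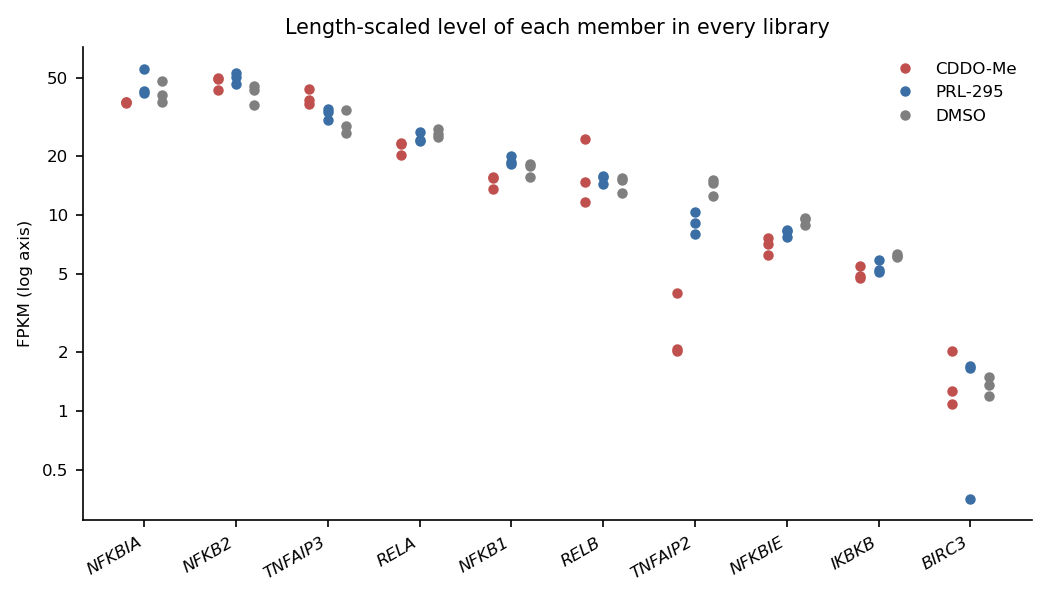
FPKM (log axis) of each member in every library, with genes ordered by their DMSO mean and CDDO-Me, PRL-295 and DMSO side by side. The widest gap between groups is that of TNFAIP2, which averaged 2.72 FPKM with CDDO-Me and 14.1 FPKM with DMSO.

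Among the subunits, NFKB1, which encodes the precursor of a DNA-binding subunit without a transactivation domain, lies on chr4:102501329-102617302 (hg38; ENSG00000109320). It had 85.4, 97.3 and 96.4 CPM (counts scaled to library size with TMM factors) in the CDDO-Me libraries, 115, 129.5 and 118 CPM with PRL-295 and 96.6, 116 and 110.4 CPM with DMSO. Every PRL-295 library exceeded every CDDO-Me library, while both overlapped the DMSO range. The log2 fold change was -0.21 (95% interval -0.46 to 0.04, adjusted p 0.272) for CDDO-Me and 0.17 (-0.09 to 0.42, 0.604) for PRL-295. PRL-295 stood 0.38 above CDDO-Me on that scale (0.13 to 0.63), with an adjusted p of 0.129 by edgeR and 0.0486 by DESeq2.

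NFKB2 (ENSG00000077150, chr10:102394110-102402529) encodes the precursor that is processed in the alternative pathway. It had 224, 192 and 221 CPM with CDDO-Me, 210.3, 245 and 232 CPM with PRL-295 and 161, 197 and 202 CPM with DMSO. All PRL-295 libraries lay above all DMSO libraries, and the CDDO-Me libraries overlapped DMSO. Its log2 fold change was 0.19 (-0.08 to 0.45, adjusted p 0.360) for CDDO-Me and 0.30 (0.03 to 0.56, unadjusted p 0.0315, adjusted p 0.330) for PRL-295. With the correction for GC content the CDDO-Me value was 0.49 with an adjusted p of 0.0254, past the threshold, and the PRL-295 value was 0.51 (adjusted p 0.0577). PRL-295 and CDDO-Me differed by 0.11 (-0.15 to 0.37, adjusted p 0.696).

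RELA (ENSG00000173039, chr11:65653596-65663094) encodes the transactivating partner of the classical dimer. It had 127, 109.6 and 124 CPM with CDDO-Me, 133, 149 and 132 CPM with PRL-295 and 148, 138 and 141 CPM with DMSO. The CDDO-Me libraries lay below those of both other groups. For CDDO-Me the log2 fold change was -0.24 (-0.47 to -0.01, unadjusted p 0.0435, adjusted p 0.178), and with the correction for GC content it was 0.0045. For PRL-295 it was -0.04 (-0.27 to 0.19, adjusted p 0.935), and PRL-295 against CDDO-Me gave 0.20 (-0.03 to 0.43, adjusted p 0.367). RELA shares 9 bases with the RNA gene AP001362.2, which had 11 to 59 counts where RELA had 2940 to 4503.

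RELB (ENSG00000104856, chr19:45001430-45038198), the partner of the NFKB2 product in the alternative pathway, had 74.5, 35.1 and 44.5 CPM with CDDO-Me, 47.4, 49.7 and 44.5 CPM with PRL-295 and 46.0, 46.7 and 39.1 CPM with DMSO. One CDDO-Me library stood above all others and another stood below all. For CDDO-Me the log2 fold change was 0.23 (-0.29 to 0.74, adjusted p 0.590), and it was -0.14 without CDDO-Me library 1. For PRL-295 it was 0.10 (-0.41 to 0.62, adjusted p 0.925). PRL-295 against CDDO-Me gave -0.12 (adjusted p 0.841), and 0.25 without CDDO-Me library 1. RELB has the highest GC content of the members at 65.4%, and with the correction for it the 3 values were 0.59 (adjusted p 0.131), 0.33 (0.682) and -0.25 (0.570).

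The balance between subunits was compared as ratios of FPKM, given as descriptions without a test. NFKB2 over NFKB1 was 3.20 ± 0.456 with CDDO-Me, 2.64 ± 0.0846 with PRL-295 and 2.42 ± 0.118 with DMSO (SD, n = 3), and the lowest CDDO-Me library at 2.75 lay above the highest PRL-295 library at 2.73. RELB over RELA was 0.759 ± 0.261 with CDDO-Me, 0.616 ± 0.0230 with PRL-295 and 0.557 ± 0.0543 with DMSO, and the CDDO-Me value rested on library 1, at 1.06. The 2 genes of the first ratio differ in GC content, at 62.4% for NFKB2 and 50.1% for NFKB1. The part of GC content in the ratio was not tested.

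**Figure D3:**
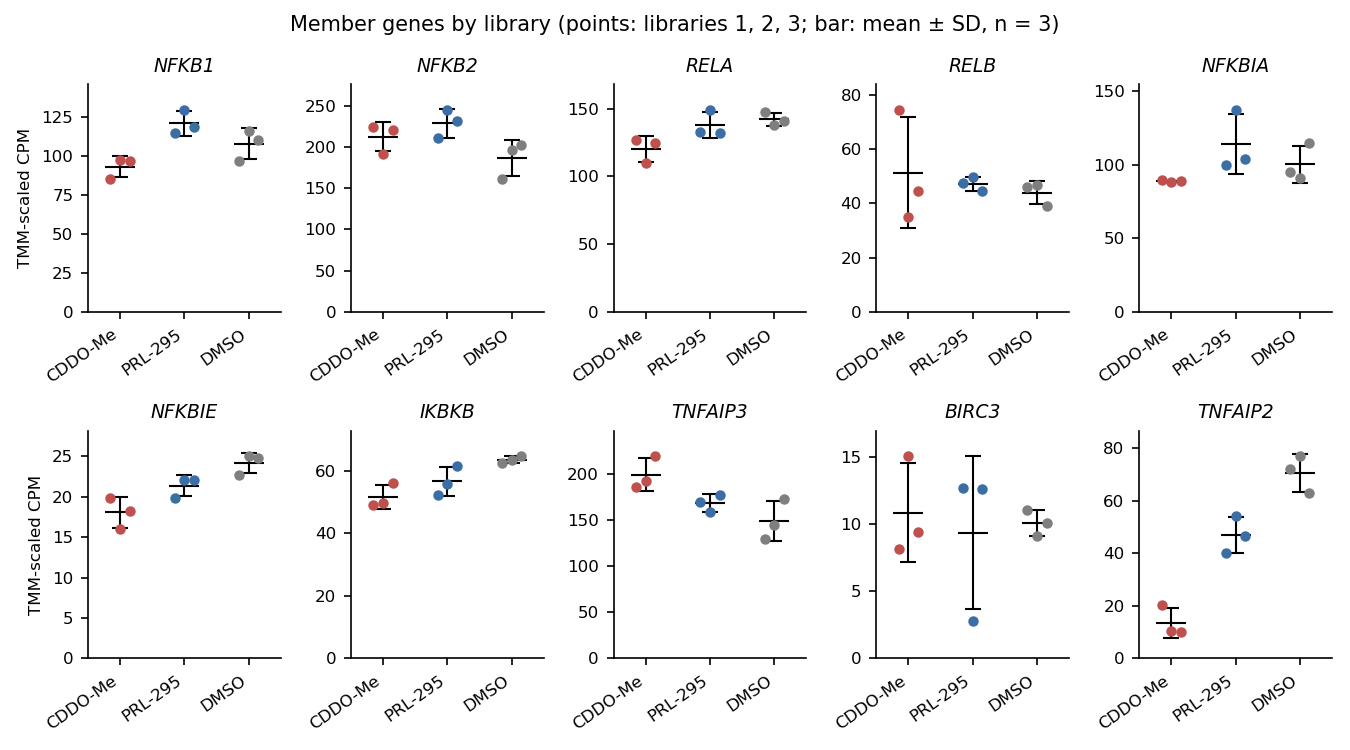
TMM-scaled CPM of each member by library in CDDO-Me, PRL-295 and DMSO, with 1 panel a gene; points are libraries 1 to 3 from left to right within a group, and bars are mean ± SD. TNFAIP2 shows 3 well separated groups, at 13.6, 47.0 and 70.6 CPM on average, and NFKBIE 3 groups that lie close together at 18.1, 21.4 and 24.2 CPM; CDDO-Me library 1 stands apart for RELB and PRL-295 library 2 for BIRC3.

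The inhibitors NFKBIA and NFKBIE were each lowest with CDDO-Me, though neither change passed the threshold. NFKBIA (ENSG00000100906, chr14:35401511-35404749), the main IkB protein of the classical pathway and itself an NF-kB target, had 89.2, 88.1 and 88.5 CPM with CDDO-Me, 99.9, 137 and 104 CPM with PRL-295 and 95.1, 90.7 and 114 CPM with DMSO. The CDDO-Me libraries were nearly alike and lay below all 6 others. The log2 fold change was -0.18 (-0.49 to 0.14, adjusted p 0.478) for CDDO-Me, and 0.10 with the correction for GC content. It was 0.18 (-0.13 to 0.50, adjusted p 0.662) for PRL-295, and 0.03 without PRL-295 library 2. PRL-295 against CDDO-Me gave 0.36 (0.05 to 0.67, unadjusted p 0.0283, adjusted p 0.228), and 0.20 without PRL-295 library 2 or 0.086 with the correction.

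NFKBIE (ENSG00000146232, chr6:44258166-44265788), which encodes another IkB protein, had 19.8, 16.1 and 18.3 CPM with CDDO-Me, 19.9, 22.1 and 22.1 CPM with PRL-295 and 22.7, 25.0 and 24.8 CPM with DMSO. The 3 groups did not overlap, with CDDO-Me lowest and DMSO highest. Its log2 fold change was -0.42 (-0.77 to -0.08, unadjusted p 0.0207, adjusted p 0.116) for CDDO-Me and -0.18 (-0.52 to 0.16, adjusted p 0.715) for PRL-295. PRL-295 against CDDO-Me gave 0.24 (-0.10 to 0.59, adjusted p 0.462). With the correction for GC content the 3 values were -0.076, -0.034 and 0.041. Summed over both inhibitors and divided by the sum of the 4 subunits, FPKM gave 0.441 ± 0.0380 with CDDO-Me, 0.503 ± 0.0470 with PRL-295 and 0.519 ± 0.0527 with DMSO, and the groups overlapped.

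IKBKB (ENSG00000104365, chr8:42271302-42332653) encodes the catalytic subunit of the IkB kinase complex that acts in the classical pathway. It had 49.1, 49.8 and 56.1 CPM with CDDO-Me, 52.2, 55.9 and 61.6 CPM with PRL-295 and 62.4, 63.4 and 64.6 CPM with DMSO. Both compound groups lay below DMSO in every library. The log2 fold change was -0.30 (-0.56 to -0.03, unadjusted p 0.0316, adjusted p 0.147) for CDDO-Me and -0.17 (-0.43 to 0.10, adjusted p 0.633) for PRL-295. The compounds differed by 0.13 (-0.13 to 0.40, adjusted p 0.633), with overlapping ranges.

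Of the responsive genes, TNFAIP3 (ENSG00000118503, chr6:137867188-137883312) encodes a ubiquitin-editing enzyme that shuts off the kinase complex. It had 187, 193 and 219.8 CPM with CDDO-Me, 170.0, 159 and 178 CPM with PRL-295 and 130.3, 145 and 173 CPM with DMSO. The CDDO-Me libraries lay above those of both other groups. The CDDO-Me log2 fold change was 0.42 (0.14 to 0.69, a 1.34-fold higher level), with an unadjusted p of 0.00646 and an adjusted p of 0.0599, short of the threshold. Under alternatives it passed with DESeq2 (adjusted p 0.0212), with no filter on low counts (0.0384) and with the correction for GC content (log2 fold change 0.51, adjusted p 0.0188). It also passed without CDDO-Me library 1 (adjusted p 0.0359) and without DMSO library 3 (0.0485). For PRL-295 the log2 fold change was 0.18 (-0.10 to 0.45, adjusted p 0.616), and PRL-295 against CDDO-Me gave -0.24 (-0.52 to 0.03, adjusted p 0.350). TNFAIP3 shares 1046 bases with the antisense gene RP11-356I2.4, which had 103 to 223 counts where TNFAIP3 had 3215 to 5963, and the strand setting of the counting was not given.

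BIRC3 (ENSG00000023445, chr11:102317450-102339403), a ubiquitin ligase that guards receptor-bound complexes against cell death, had 8.14, 15.1 and 9.40 CPM with CDDO-Me, 12.7, 2.78 and 12.6 CPM with PRL-295 and 11.1, 9.13 and 10.1 CPM with DMSO. PRL-295 library 2, with 73 counts, stood below every other library, and CDDO-Me library 2 stood above. On the log2 scale the fold change was 0.11 (-0.90 to 1.11, adjusted p 0.917) for CDDO-Me and -0.11 (-1.12 to 0.90, adjusted p 0.967) for PRL-295. Its sign changed in both on leaving out 1 library, to -0.22 without CDDO-Me library 2 and to 0.33 without PRL-295 library 2. PRL-295 against CDDO-Me gave -0.21 (adjusted p 0.862), 0.12 without CDDO-Me library 2 and 0.22 without PRL-295 library 2. BIRC3 has the lowest GC content of the members at 34.8%. With the correction for GC content the values were -0.64 for CDDO-Me, -0.46 for PRL-295 and 0.18 between the compounds.

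TNFAIP2 (ENSG00000185215, chr14:103123442-103137439), a gene induced by tumour necrosis factor whose product is known for its part in the formation of membrane protrusions, had 20.2, 10.4 and 10.2 CPM with CDDO-Me, 40.3, 54.1 and 46.7 CPM with PRL-295 and 72.0, 77.0 and 62.9 CPM with DMSO. The raw counts were 645, 306 and 240 with CDDO-Me, 982, 1420 and 1262 with PRL-295 and 1776, 2505 and 2012 with DMSO. The 3 groups did not overlap, with PRL-295 between the others. TNFAIP2 averaged 13.6 ± 5.73 CPM with CDDO-Me, 47.0 ± 6.91 CPM with PRL-295 and 70.6 ± 7.16 CPM with DMSO (SD, n = 3). The CDDO-Me log2 fold change was -2.37 (-2.95 to -1.80; 3.49-fold to 7.70-fold lower), with an adjusted p of 0.000465, and TNFAIP2 stood at place 338 of 16239 genes by absolute change. It passed under all 11 alternative settings (-2.41 to -2.06) and without each of the 9 libraries in turn (-2.78 to -2.20). As bulk RNA was measured, fewer cells that express it and less RNA per cell cannot be told apart.

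For PRL-295 against DMSO, the TNFAIP2 log2 fold change was -0.59 (-1.13 to -0.04), with an unadjusted p of 0.0363 and an adjusted p of 0.347. It passed without CDDO-Me library 1 alone (adjusted p 0.0498), and with the correction for GC content it was -0.35 (adjusted p 0.633). PRL-295 against CDDO-Me gave 1.79 (1.23 to 2.35; 2.34-fold to 5.10-fold higher), with an adjusted p of 0.00694. That call held in 10 of 11 alternatives and without each library in turn (1.62 to 2.20), and it missed the threshold when the fit held the 6 libraries of the comparison only (adjusted p 0.0631). TNFAIP2 and TNFAIP3 are named for their common inducer and not for a shared function, and their fold changes with CDDO-Me had opposite signs. The FPKM of TNFAIP2 divided by that of TNFAIP3 was 0.0697 ± 0.0339 with CDDO-Me, 0.281 ± 0.0540 with PRL-295 and 0.484 ± 0.104 with DMSO, with no overlap between the groups. TNFAIP2 by itself did not overlap between the groups either. GC content was 62.0% for TNFAIP2 and 49.5% for TNFAIP3, and its part in this ratio was not tested.

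**Figure D4:**
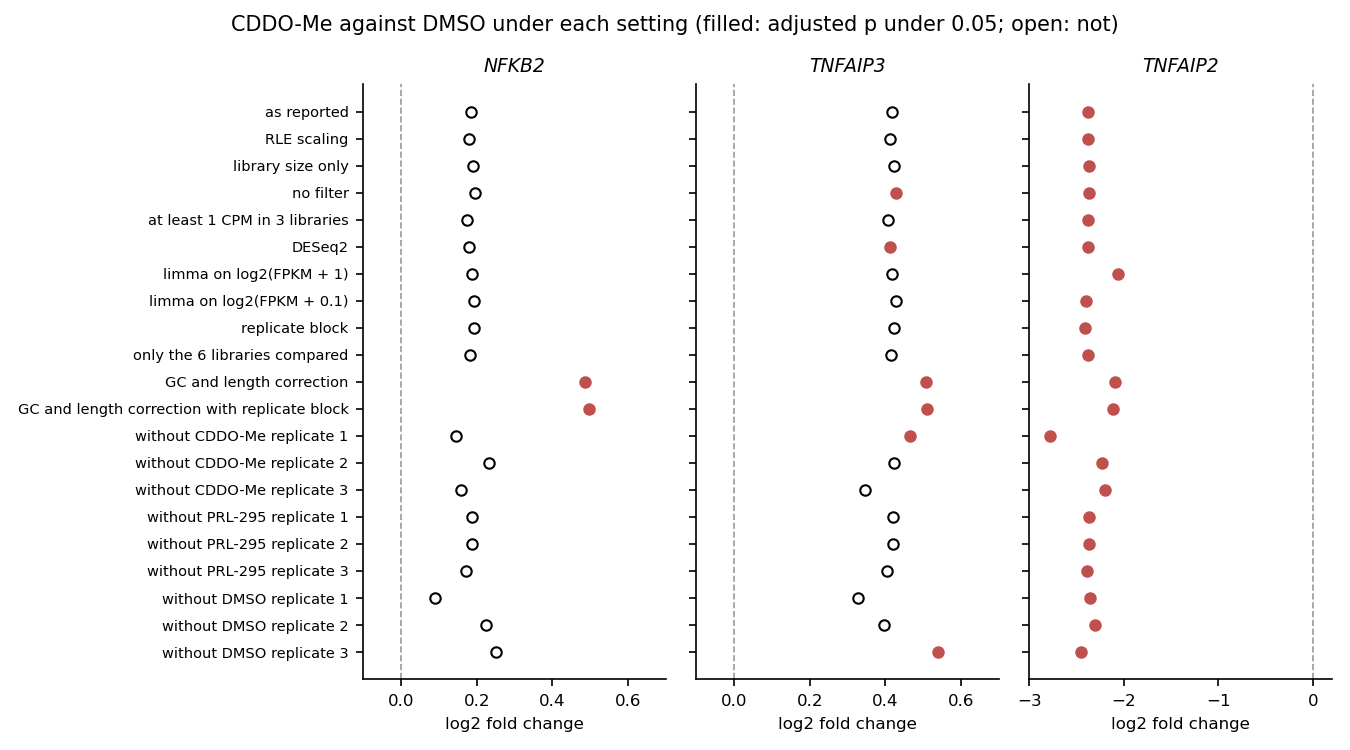
Log2 fold change (x axis) of NFKB2, TNFAIP3 and TNFAIP2 for CDDO-Me against DMSO under each setting (y axis); filled points passed an adjusted p of 0.05. TNFAIP2 passed everywhere, TNFAIP3 passed in 4 of 11 alternatives and without 2 of 9 libraries, and NFKB2 passed in both fits with a GC correction.

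Counting the members whose groups did not overlap in CPM gave 6 of 10 for CDDO-Me against DMSO, where 31.8% of all genes tested did the same. Only TNFAIP3 lay above DMSO, and RELA, NFKBIA, NFKBIE, TNFAIP2 and IKBKB lay below. For PRL-295 against DMSO there were 4 of 10, where the background was 27.2%, with NFKB2 above and NFKBIE, TNFAIP2 and IKBKB below. For PRL-295 against CDDO-Me there were 6 of 10, where the background was 24.6%, with NFKB1, RELA, NFKBIA, NFKBIE and TNFAIP2 above and TNFAIP3 below.

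Library totals ran from 23383800 to 32942156 counts, and 3 counts, the floor of detection, were worth 0.0911 to 0.128 CPM. Genes with any count numbered 14543 in CDDO-Me library 1, the fewest, and 17821 to 23271 in the other libraries. The part of this difference in the values of CDDO-Me library 1 was not tested. Libraries differed in how far their genes deviated with GC content. The correlation across genes was -0.017, -0.55 and -0.14 in the CDDO-Me libraries, -0.33, 0.27 and -0.075 in the PRL-295 libraries and 0.26, 0.21 and 0.27 in the DMSO libraries. Every DMSO value lay above every CDDO-Me value, so a library trend and an effect of CDDO-Me that follows GC content cannot be told apart. The values of -0.55 and 0.27 belong to the libraries that stood apart for BIRC3, CDDO-Me library 2 and PRL-295 library 2, and the part of GC content in them was not tested. As a check of the labels, the NRF2 target HMOX1 averaged 362 ± 9.49 CPM with CDDO-Me, 42.2 ± 4.82 CPM with PRL-295 and 11.1 ± 2.47 CPM with DMSO, and NQO1 averaged 739 ± 176, 1089.7 ± 155 and 371 ± 41.8 CPM in the same order. Both rose with either compound against DMSO, though NQO1 missed the threshold for CDDO-Me without DMSO library 2 (adjusted p 0.0503). All 12 keratinocyte markers stood at 1 CPM or more, and their summed level was 25049 to 29116 CPM with CDDO-Me, 16587 to 17720 CPM with PRL-295 and 19109 to 21314 CPM with DMSO. Of these markers, 8 were called higher and 0 lower with CDDO-Me than with DMSO, where 4.65% and 4.57% of all genes tested were. Without 1 library 2 to 9 were higher, fewest without DMSO library 2 or 3. For PRL-295 against CDDO-Me, 0 of the markers were called higher and 7 lower, where 0.905% and 0.684% of all genes tested were. Without 1 library 3 to 7 were lower, fewest without CDDO-Me library 3, PRL-295 library 3 or DMSO library 2. The medians of the 12 were 0.52 and -0.64 on the log2 scale, and their part in the TNFAIP2 result was not tested. Of 12 immune cell markers, 0 reached 1 CPM, with CD2, MS4A1 and FCGR3A at 0, and their sum was 1.06 to 1.19 CPM with CDDO-Me, 1.74 to 2.93 CPM with PRL-295 and 2.03 to 3.40 CPM with DMSO. Fibroblast markers reached 1 CPM for 2 of 9 genes, with COL3A1, DCN and LUM at 0, and summed to 12.5 to 14.6, 8.27 to 9.22 and 10.8 to 13.1 CPM. Melanocyte markers did so for 2 of 7, with TYR at 0, and summed to 6.99 to 7.74, 4.33 to 5.50 and 4.94 to 9.96 CPM. Endothelial markers did so for 0 of 7, with PECAM1 at 0, and summed to 0.125 to 1.22, 0.592 to 1.98 and 1.48 to 2.78 CPM, each in the order CDDO-Me, PRL-295 and DMSO.

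The rest of the pathway was counted over 5 lists. Of all genes tested, 4.65% were called higher and 4.57% lower for CDDO-Me against DMSO. For PRL-295 against DMSO these shares were 0.462% and 0.222%, and for PRL-295 against CDDO-Me 0.905% and 0.684%. An unadjusted p under 0.05 was met by 26.0%, 12.9% and 17.2% of all genes in the same order. Among the other Rel and IkB proteins, 0 of 7 were called in any comparison with the edgeR fit of all 9 libraries. An unadjusted p under 0.05 was met by 2 for CDDO-Me and 0 for the others. DESeq2 also called 0, with an adjusted p for 6 of the 7 in PRL-295 against DMSO. Without CDDO-Me library 1, 1 was called higher for CDDO-Me against DMSO. The median log2 fold change of this list was -0.27 with CDDO-Me, -0.08 with PRL-295 and 0.13 for PRL-295 against CDDO-Me. The CDDO-Me median was -0.026 with the correction for GC content and -0.12 without DMSO library 2, and the PRL-295 median was -0.0060 with the correction. NFKBIB, a further IkB protein, averaged 34.2 ± 3.72 CPM with CDDO-Me, 42.0 ± 5.30 CPM with PRL-295 and 44.3 ± 1.61 CPM with DMSO, with log2 fold changes of -0.37 (adjusted p 0.137) and -0.08 (0.906). NKIRAS2, a small GTPase-like protein that binds IkB, averaged 46.7 ± 6.11 CPM with CDDO-Me, 45.8 ± 2.81 CPM with PRL-295 and 48.6 ± 1.05 CPM with DMSO.

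Of the 26 genes of the kinase complex, its adaptors and upstream kinases, 2 were higher and 1 lower with CDDO-Me, and the median was 0.13 on the log2 scale. An unadjusted p under 0.05 was met by 15 of the 26. DESeq2 called 8 higher and 2 lower, a fit with no filter on low counts called 8 higher and 0 lower, and leaving out 1 library gave 0 to 7 higher and 0 to 5 lower, with a median of -0.099 without CDDO-Me library 1. MAP3K7, the kinase that activates the IkB kinases, had 47.0, 52.1 and 38.4 CPM with CDDO-Me against 25.0, 22.9 and 27.8 CPM with DMSO (log2 fold change 0.86, adjusted p 0.0155). Its partner TAB2 had 49.8, 87.2 and 67.5 CPM with CDDO-Me against 38.4, 41.8 and 41.4 CPM with DMSO (0.75, adjusted p 0.0446). TRAF2, an adaptor of tumour necrosis factor receptors, had 111, 103 and 115 CPM with CDDO-Me against 150.2, 148 and 143 CPM with DMSO (-0.42, adjusted p 0.0343). None of these 3 calls held with the correction for GC content, where the values were 0.37, 0.29 and -0.10 (adjusted p 0.322, 0.134 and 0.580). The MAP3K7 call ended without CDDO-Me library 2 (adjusted p 0.0575), DMSO library 1 (0.0723) or DMSO library 2 (0.0854), and those of TAB2 and TRAF2 held without 2 of the 9 libraries each, namely CDDO-Me library 1 and PRL-295 library 2. With PRL-295 against either other group, 0 of 26 were called with the settings used throughout, with 3 at an unadjusted p under 0.05 against DMSO and 2 against CDDO-Me. DESeq2 also called 0 of the 25 genes to which it gave an adjusted p. A fit with no filter called 1 higher against DMSO and 0 against CDDO-Me. IRAK1, a kinase of the interleukin 1 receptor, and CARD10, an adaptor, had log2 fold changes of -0.29 and -0.08 with PRL-295 against DMSO (adjusted p 0.509 and 0.878).

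Of 20 ligands and receptors, 17 were tested, and IL1B, a cytokine that activates the pathway, was the only one called with the settings used throughout. IL1B had 79.2, 76.1 and 87.0 CPM with PRL-295 and 13.7, 24.9 and 27.4 CPM with CDDO-Me, against 43.8, 51.8 and 49.4 CPM with DMSO. The groups did not overlap, with PRL-295 highest and CDDO-Me lowest. It fell with CDDO-Me (log2 fold change -1.14, adjusted p 0.0115; 0.0574 without DMSO library 2), and PRL-295 stood 1.88 above CDDO-Me (adjusted p 0.00261, and past the threshold in every setting tried). The list's median log2 fold change was -0.15 with CDDO-Me and -0.22 with PRL-295. For PRL-295 against DMSO, 0 of 17 were called with the settings used throughout, and 3 had an unadjusted p under 0.05. DESeq2, a fit with no filter and a fit of the 6 libraries each called 2 higher, and the correction for GC content called 1 higher. Leaving out CDDO-Me library 1 gave 2 higher, and leaving out CDDO-Me library 2 gave 1. For CDDO-Me 5 of 17 had an unadjusted p under 0.05. With the correction for GC content the CDDO-Me median was 0.15, with 1 gene called higher and 2 lower. Over the 11 alternatives 0 to 2 genes were called higher and 1 to 2 lower with CDDO-Me, and for PRL-295 against CDDO-Me DESeq2 called 1 higher and 2 lower. The receptors TNFRSF12A and LTBR had log2 fold changes of 0.21 and -0.18 with PRL-295 against DMSO (adjusted p 0.586 and 0.537).

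Of 18 other negative regulators, 17 were tested, and 4 were called higher and 0 lower with CDDO-Me, the list's median log2 fold change being 0.07. An unadjusted p under 0.05 was met by 7 of the 17. DESeq2 called 5 higher and 2 lower. TNIP3, which binds the TNFAIP3 product, had 3.54, 1.94 and 3.09 CPM with CDDO-Me, 1.85, 1.49 and 2.04 CPM with PRL-295 and 0, 0.399 and 0.281 CPM with DMSO. Its log2 fold change was 3.59 for CDDO-Me (1.72 to 5.46, adjusted p 0.0271), a size that rests on DMSO values near the floor of detection. TNIP3 passed in 8 of 11 alternatives, where its value ran from 0.73 to 3.71. The others were TAX1BP1, an adaptor of the TNFAIP3 product (1.12, adjusted p 0.0444), CYLD, a deubiquitinase (0.67, 0.0314), and the ubiquitin ligase ITCH (0.61, 0.0145). With the correction for GC content, CYLD was at 0.15 (adjusted p 0.743) and ITCH at 0.14 (0.679). No call of the 4 was left without DMSO library 2 or without DMSO library 3, and 1 was left without CDDO-Me library 2, without PRL-295 library 3 and without DMSO library 1. Without CDDO-Me library 3 there were 2.

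With PRL-295, ITCH was the only negative regulator called by edgeR after the filter on low counts, at 144, 119 and 126 CPM against 76.9, 70.6 and 73.4 CPM with DMSO (log2 fold change 0.82, adjusted p 0.0169). The call ended with the correction for GC content (0.63, adjusted p 0.0842), without PRL-295 library 1 or 3 (0.0864 and 0.0750) and without DMSO library 1, 2 or 3 (0.0856, 0.122 and 0.0706). Between the compounds 0 of 17 were called by edgeR after the filter, with 4 at an unadjusted p under 0.05. DESeq2 and an edgeR fit with no filter each called 1 lower. TNIP1, a partner of the TNFAIP3 product, stood 0.31 higher with PRL-295 than with CDDO-Me (adjusted p 0.225), and N4BP1, an inhibitor of the pathway, stood at -0.39 (0.135).

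Of 26 known NF-kB target genes, 23 were tested, and 12 had an unadjusted p under 0.05 with CDDO-Me. By the adjusted p 2 were higher and 5 lower with CDDO-Me, the list's median log2 fold change being -0.25. That median was -0.034 with the correction for GC content, -0.044 with no filter, -0.057 with DESeq2, -0.0069 without DMSO library 3, -0.058 without DMSO library 2, -0.076 without CDDO-Me library 1 and -0.10 without CDDO-Me library 3, while the calls numbered 1 to 3 higher and 3 to 5 lower under all settings. The chemokine CCL2 had 1.19, 1.19 and 1.40 CPM with CDDO-Me, 10.1, 8.88 and 8.07 CPM with PRL-295 and 19.7, 19.1 and 25.2 CPM with DMSO. The groups did not overlap, and their order was that of TNFAIP2. The CCL2 log2 fold change was -4.08 for CDDO-Me (-4.60 to -3.56, adjusted p 6.25e-06) and -1.25 for PRL-295 (-1.70 to -0.79, adjusted p 0.0226), and PRL-295 stood 2.84 above CDDO-Me (2.34 to 3.34, adjusted p 0.000168). The PRL-295 call against DMSO ended without any 1 of the 6 libraries of that comparison (adjusted p 0.0819 to 0.157).

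IRF1, a transcription factor of the interferon response, had 24.3, 26.8 and 29.7 CPM with CDDO-Me, 43.8, 58.5 and 46.2 CPM with PRL-295 and 55.6, 56.9 and 52.4 CPM with DMSO. It fell with CDDO-Me (log2 fold change -1.03, adjusted p 0.00270), and PRL-295 stood 0.88 above CDDO-Me (adjusted p 0.0172; 0.0551 without PRL-295 library 2, 0.0709 without PRL-295 library 3 and 0.122 in a fit of the 6 libraries alone). LCN2, an iron-binding defence protein, had 51.6, 51.2 and 63.7 CPM with CDDO-Me, 89.0, 106 and 94.1 CPM with PRL-295 and 84.4, 102 and 122 CPM with DMSO. It fell with CDDO-Me (-0.89, adjusted p 0.00699), and PRL-295 stood 0.79 above CDDO-Me (adjusted p 0.0306), a call that held without DMSO library 1 or 3 and ended without any other library (0.0561 to 0.117) and in the fit of 6 libraries (0.0963). For CDDO-Me against DMSO, the calls of CCL2, IRF1 and LCN2 held in all 11 alternatives and without each library.

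The other target genes called with CDDO-Me were SERPINB2, an inhibitor of plasminogen activators (log2 fold change 0.86, adjusted p 0.00332), PTGS2, the inducible cyclooxygenase (2.06, 0.0421), and the chemokines CCL5 (-1.16, 0.0445) and CXCL1 (-0.50, 0.0437). SERPINB2 held without each library in turn, and with the correction for GC content it was at 0.60 (adjusted p 0.111). PTGS2, CCL5 and CXCL1 held without 3, 2 and 1 of the 9 libraries, with adjusted p up to 0.128 (without CDDO-Me library 2), 0.155 (without DMSO library 3) and 0.163 (without DMSO library 3). With the correction for GC content PTGS2 was at 1.56 (adjusted p 0.124) and CCL5 at -0.90 (0.0674). With PRL-295, PLAU, the urokinase plasminogen activator, was called at 324, 446 and 358 CPM against 185, 199 and 263 CPM with DMSO (0.80, adjusted p 0.0493). That call held in 5 of 11 alternatives and without 3 of the 9 libraries, and it reached an adjusted p of 0.275 without DMSO library 1. For PRL-295 against DMSO, 1 target gene was called higher and 1 lower, where 0.462% and 0.222% of all genes tested were. Over the alternatives 0 to 3 were higher and 0 to 1 lower. Leaving out any 1 PRL-295 library, or DMSO library 1 or 2, gave 0 in either direction. Without DMSO library 3 there were 1 higher and 0 lower. Between the compounds 3 were higher and 0 lower with PRL-295, the list's median log2 fold change being 0.25.

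**Figure D5:**
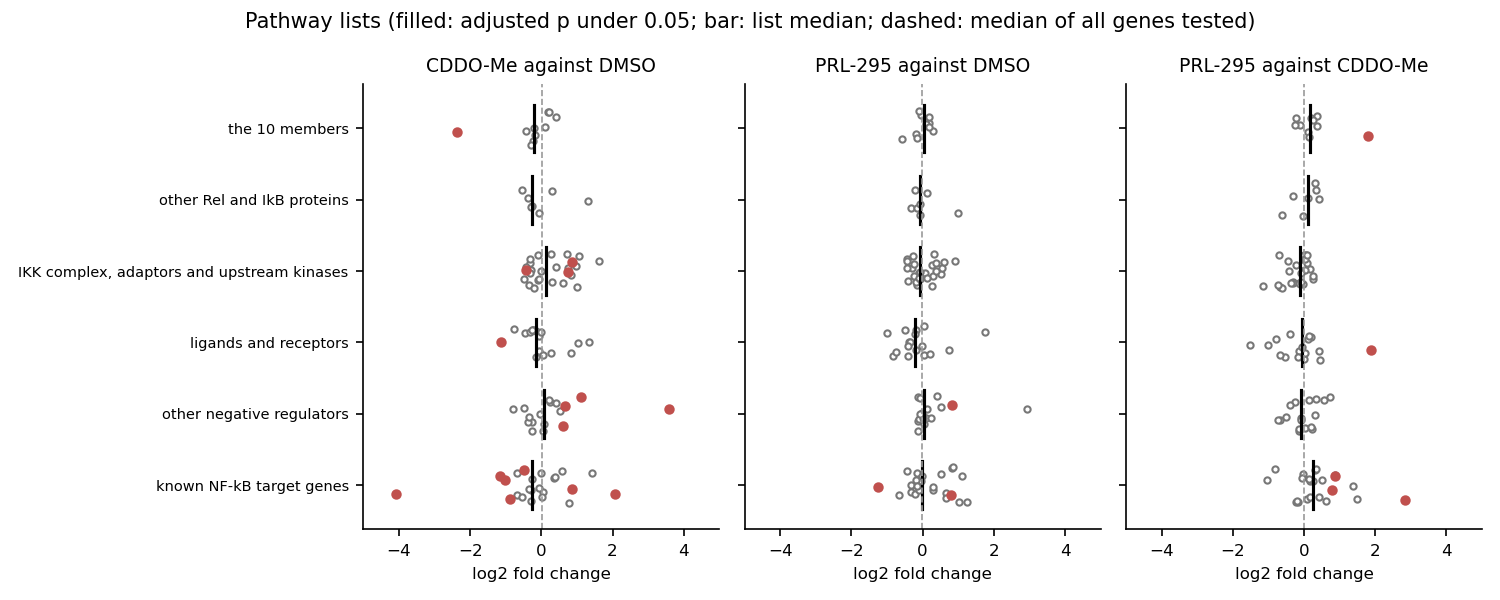
Log2 fold change (x axis) of every tested gene in the 10 members and the 5 pathway lists (y axis) for the 3 comparisons; filled points passed an adjusted p of 0.05, bars are list medians and the dashed line is the median of all genes tested. For CDDO-Me against DMSO the lowest called genes are CCL2 at -4.08 and TNFAIP2 at -2.37, and the highest is TNIP3 at 3.59. The DMSO level of TNIP3 was near the floor of detection.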

How the data were processed

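RNA from 9 HaCaT libraries was measured. Per the submitters' processing notes, the tools include STAR 2.5 and HTSeq 0.6.1 with build hg38; the annotation release and strand setting are not given in the sources used here. The values deposited as counts are whole and unscaled. The authors' FPKM equalled count over gene length and library total for 100% of values within 0.1%. Samples were grouped by the labels.

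Counts were tested with edgeR 4.0.16 (R 4.3.3): filterByExpr by group, TMM scaling, 1 quasi-likelihood fit of all 9 libraries, two-sided tests, Benjamini-Hochberg adjustment over 16239 genes, threshold 0.05. CPM are TMM-scaled, and intervals are 95% intervals of that fit. Alternatives were other scalings and filters, DESeq2 1.42.0, limma 3.58.1 on log2(FPKM + 1) and log2(FPKM + 0.1), a replicate block and a fit of 6 libraries. Further ones were offsets for GC content and length, and leaving out each library. The offsets were splines over the GC content of the longest GENCODE transcript and over the deposited gene length. The test was checked on simulated data. Precision is limited by 3 libraries a group, and the floor of 3 counts covers counting error only.

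The members and lists were chosen with earlier results of these data known. All members are named; from each list, up to 6 genes called per comparison by size of change, or else the 2 with the highest CPM, and overlapping genes. CXCL1 falls outside that rule and was named after its values were seen. HMOX1 and NQO1 checked the labels. SOD2 stood on 2 rows, and the row with more counts was used.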

Additional observations from a re-analysis of the deposited data

How the results depend on the processing

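The members' log2 fold changes kept direction and side of the threshold in 572 of 600 values under other settings; 10 passed newly, 1 no longer passed and 17 changed sign. The cause was not tested. Genes called for CDDO-Me against DMSO (1497) numbered 2616 with DESeq2, 2509 with no filter, 864 with the replicate block, 934 with the block and GC correction, and 400 to 2803 without 1 library. For PRL-295 against DMSO (111) they numbered 603, 825, 60 with the block, 650 with 6 libraries, 188 with the GC correction, and 33 to 589 without 1 library. For PRL-295 against CDDO-Me (258) they numbered 1054, 1250, 156 with the block, 45 with 6 libraries, 448 with the GC correction, 388 with both, and 60 to 285 without 1 library. Members called higher with CDDO-Me (0) were 1 with DESeq2 or no filter, 2 with the GC correction with or without the block, and 0 to 1 without 1 library; members called lower with PRL-295 (0) were 0 to 1. Members called higher in PRL-295 against CDDO-Me (1) were 2 with DESeq2 and 0 with 6 libraries, where TNFAIP2 kept 1.79 with an adjusted p of 0.0631.

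Sign changes for CDDO-Me against DMSO were, with the GC correction and then also with the replicate block, RELA 0.0045 and 0.0039, NFKBIA 0.10 and 0.097, BIRC3 -0.64 and -0.63, and NKIRAS2 0.10 and 0.095. Leaving out 1 library gave RELB -0.14 (without CDDO-Me 1) to 0.42, BIRC3 -0.22 (without CDDO-Me 2) to 0.28 and NKIRAS2 -0.16 to 0.0066 (without CDDO-Me 2). For PRL-295 against DMSO, both corrections gave RELA 0.14, NFKBIB 0.050 and 0.051, and CARD10 0.24, and leaving out 1 library gave NFKBIB -0.17 to 0.017 (without PRL-295 1), BIRC3 -0.39 to 0.33 (without PRL-295 2) and RELA -0.098 to 0.024 (without PRL-295 3). For PRL-295 against CDDO-Me, both gave BIRC3 0.18 and 0.12, and IRAK1 -0.058 and -0.041. Leaving out 1 library gave RELB -0.29 to 0.25 (without CDDO-Me 1), NKIRAS2 -0.066 to 0.082 (without CDDO-Me 1; 0.068 without PRL-295 3), BIRC3 -0.49 to 0.22 (without PRL-295 2; 0.12 without CDDO-Me 2) and IRAK1 -0.057 (without CDDO-Me 2; -0.0024 without CDDO-Me 3) to 0.25. Libraries of the same number deviated from their group means with correlations of -0.22 to 0.11 over 13123 genes. No clear pairing by number was seen, though deviations from means of 3 cannot exclude it, and the replicate block is given only here. Every member had 73 counts or more in each library, the lowest being BIRC3 in PRL-295 library 2.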
